A study of Mus musculus with 5 samples.

Results

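Transcripts of 10 genes that mark or serve cell division were followed in single T cells from the mouse brain. The genes are Mki67, Top2a, Birc5, Pclaf, Stmn1, Hmgb2, Tubb5, Tuba1b, Mcm5 and Mcm6, taken by name from the deposited count tables, out of 15952 genes with a count in the cells kept. All 10 had at least 1 count, and 8 of them had one in every mouse. Of 1482 kept cells, 110 (7.42%, 95% exact binomial interval 6.14 to 8.88) carried 2 or more of the 10 genes and 9 (0.607%, 0.278 to 1.15) carried 4 or more.

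The cells were sorted 1 per well as CD45-positive, CD11b-negative and T cell receptor beta-positive from brain tissue from which the choroid plexus, the epithelium that secretes the cerebrospinal fluid, had been left out. All 5 mice were of the strain Grl1loxP/loxP, had been given foot shocks and were taken on day 14 after the stress. TAT-CRE mice (207, 208 and 215, aged 18, 18 and 19 weeks) had received TAT-CRE recombinase, a cell-permeable Cre, into the ventricles, and PBS mice (216 and 218, aged 19 and 16 weeks) had received PBS there. The stated aim was to knock down the receptor for glucocorticoids in that epithelium. TAT-CRE is a protein given into the ventricles, with no promoter or cell type of its own to limit where it acts, and the tissue in which it was meant to act was left out. Each library was taken as 1 mouse; the labels do not say whether animals were pooled. Every library had its own plate and amplification batch, so plate and mouse cannot be told apart.

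Most T cells outside lymphoid organs rest between divisions and enter the cycle when their receptor and cytokines drive them. A cell that copies its DNA makes the MCM helicase and the proteins of the replication fork, and one that approaches mitosis makes topoisomerase II alpha, Ki-67, survivin and the spindle proteins. The tubulins, stathmin and Hmgb2 rise in dividing cells as well, but resting lymphocytes also make tubulin and Hmgb2 transcripts, so a count of these alone does not mark a dividing cell.

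Counts are unique molecular identifiers (UMIs), each standing for 1 captured RNA molecule. A well was kept where it held 1 cell, 400 or more UMIs not from spike-ins and no more than 30% mitochondrially encoded UMIs. This left 311, 303 and 298 cells of the TAT-CRE mice and 296 and 274 of the PBS mice, and values per mouse are given throughout in the order 207, 208 and 215 for TAT-CRE and 216 and 218 for PBS. The shallowest library was TAT-CRE 208, with a median of 993 UMIs per cell, and the deepest PBS 218, with 2660. TAT-CRE 208 stands apart with 28.3% of its UMIs from ribosomal RNA genes, against 43.9% to 48.0% in the other libraries; without it, 100 of 1179 cells (8.48%) carried 2 or more of the 10 genes and 9 (0.763%) carried 4 or more. No pair of pool and well barcodes was shared between libraries, and the 20 empty wells, with 17 to 160 UMIs each, held 0 UMIs of the 10 genes. T cell markers (10 of 10 detected) stood at 4448 to 6351 CPM (the count per 1e+06 UMIs of the library) in TAT-CRE mice and 4830 to 5472 in PBS mice, while plasma cell, neutrophil and oligodendrocyte precursor markers were at 0 throughout. Markers of other cells were present at lower levels. Those of oligodendrocytes stood at 185 to 232 CPM in TAT-CRE and 189 to 261 CPM in PBS mice, with 2 of 6 genes at 0. Those of monocytes or macrophages stood at 119 to 141 and 84.7 to 131 CPM. Of that list 6 of 7 genes were at 0, so its level is that of a single gene.

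The genes fell into sets by how closely textbook knowledge ties them to division. Mki67 (Ki-67, which coats mitotic chromosomes), Top2a (topoisomerase II alpha, which untangles DNA), Birc5 (survivin, of the chromosomal passenger complex) and Pclaf (a partner of the PCNA clamp) gave 151 of the 1597 UMIs of the 10 genes (9.46%). Mcm5 and Mcm6, subunits of the helicase that opens DNA for replication, gave 251 (15.7%). Hmgb2, a chromatin protein, the tubulin genes Tubb5 and Tuba1b and Stmn1 (stathmin, which destabilises microtubules) gave 1195 (74.8%). Most of what the 10 genes yielded therefore came from Hmgb2 and the tubulin genes, which resting cells can transcribe too. Stmn1 gave 29 of the 1195 UMIs.

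In cells, Hmgb2 had a UMI in 209 (14.1%), Tubb5 in 179 (12.1%) and Tuba1b in 138 (9.31%). Mcm6 was found in 62 cells (4.18%), Top2a in 27 (1.82%), Mcm5 in 23 (1.55%), Mki67 in 15 (1.01%, 0.568 to 1.66) and Stmn1 in 14 (0.945%). Pclaf was found in 3 cells and Birc5 in 1, all of them from PBS mice. Capture can differ between genes, so these counts do not rank their levels, and a cell without a UMI may still express the gene at this depth. A cell type of the same plates that should lack these genes was not at hand; beside the empty wells, no background share could be measured. Counting error alone is covered by the intervals given.

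A cell often owed its place among the 110 to the widely seen genes Hmgb2, Tubb5 and Tuba1b. Stmn1 was rarer, and 16 of its 29 UMIs lay in the 9 cells with 4 or more of the genes. In 63 of them only Hmgb2, Tubb5, Tuba1b or Stmn1 were seen, 36 had Mcm5 or Mcm6, and 17 had at least 1 of Mki67, Top2a, Birc5 and Pclaf. Among the 92 cells with exactly 2 of the genes, Hmgb2 with Tubb5 was the most frequent pair (25 cells), followed by Tubb5 with Tuba1b (18), Hmgb2 with Tuba1b (14) and Tubb5 with Mcm6 (10). Mki67 and Top2a shared 3 cells. These 110 cells were also deeper than the rest, with a median of 2947.5 UMIs against 1560.5.

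**Figure D1:**
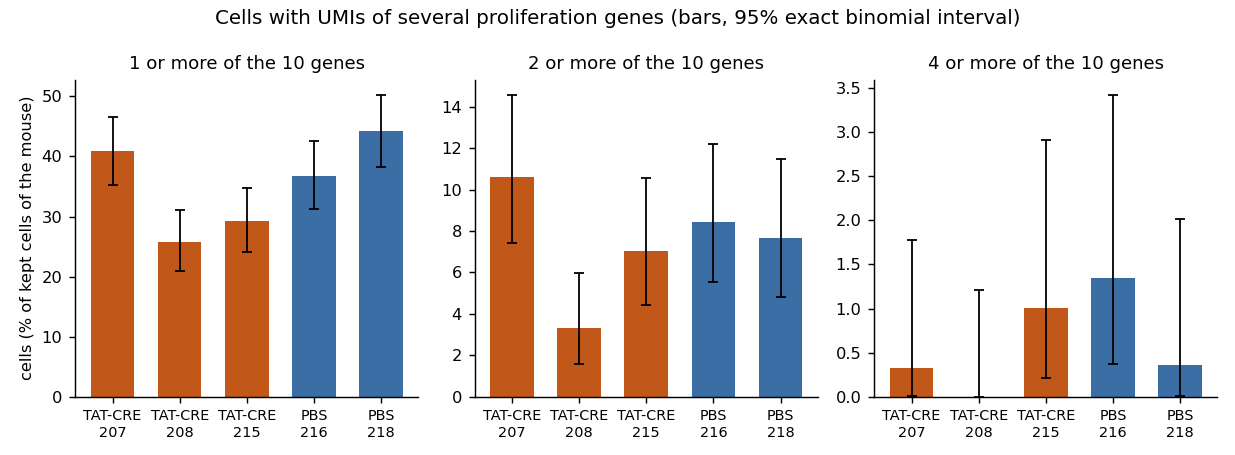
Share of kept cells of each mouse (y axis, percent) with a UMI of 1 or more, 2 or more, or 4 or more of the 10 genes; orange bars are TAT-CRE mice, blue bars PBS mice, and lines are 95% exact binomial intervals. The share with 2 or more runs from 3.30% to 10.6% among TAT-CRE mice, around the 7.66% and 8.45% of the PBS mice.

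Cells with 2 or more of the genes numbered 33 (10.6%), 10 (3.30%) and 21 (7.05%) in the TAT-CRE mice, against 25 (8.45%) and 21 (7.66%) in the PBS mice. The shares of the TAT-CRE mice span those of the PBS mice, and the lowest is that of the shallowest library. With every cell thinned to 400 UMIs, the shares were 1.27%, 0.776% and 1.02% in the TAT-CRE mice, against 1.503% and 1.33% in the PBS mice. Both PBS mice then had larger shares than any TAT-CRE mouse, and TAT-CRE mice were lower by 0.395 percentage points on average (1.02 ± 0.247%, SD, n = 3, and 1.42 ± 0.121%, SD, n = 2), which an exact two-sided permutation test over mice did not separate (p = 0.2; the smallest possible is 0.1). Unthinned, the difference was -1.07 percentage points (6.99 ± 3.66%, SD, n = 3, and 8.06 ± 0.553%, SD, n = 2; exact permutation p = 0.7).

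Cells with 4 or more of the genes numbered 1, 0 and 3 in the TAT-CRE mice, against 4 and 1 in the PBS mice, so the groups overlap. In TAT-CRE 208, 0 of 303 cells allows a share of cells with such UMIs of up to 0.990%, taken as 3 counts of the total (the exact binomial upper limit is 1.21%). Thinned, the share with 4 or more was 0% in all 3 TAT-CRE mice, against 0.0845% and 0.0182% in the PBS mice, so the groups then did not overlap (exact permutation p = 0.1). These are means over 20 thinnings. A single cell is 0.338% of PBS 216 and 0.365% of PBS 218, so either mouse had fewer than 1 such cell per thinning on average. The absence of overlap thus hangs on a few random draws. Cells with 3 or more numbered 3, 1 and 4 in the TAT-CRE mice, against 6 and 4 in the PBS mice; thinned, their share was 0.0384 ± 0.0190% (SD, n = 3) and 0.223 ± 0.186% (SD, n = 2), with an exact permutation p of 0.1, in both cases the smallest that 5 mice split in this way allow. Cells with 2 or more of Mki67, Top2a, Birc5 and Pclaf were seen in 0, 1 and 0 cells of the TAT-CRE mice and 2 and 1 of the PBS mice. After thinning, the share of such cells differed by -0.04 percentage points (0.0165 ± 0.0286%, SD, n = 3, and 0.0541 ± 0.0526%, SD, n = 2; exact permutation p = 0.5), and all these thinned shares rest on a handful of cells.

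**Figure D2:**
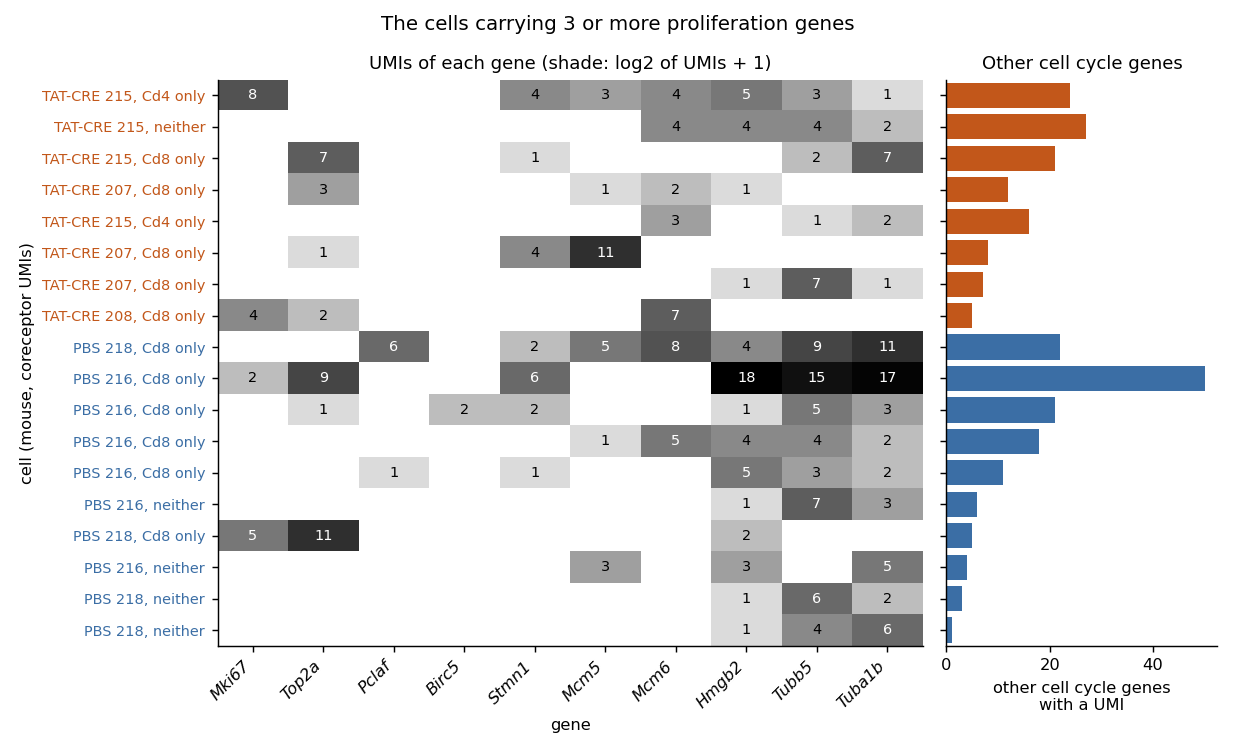
The 18 cells with 3 or more of the 10 genes, 8 from TAT-CRE mice (orange, upper rows) and 10 from PBS mice (blue, lower rows), named by mouse and by the Cd4 and Cd8 UMIs of the cell. Left, UMIs of each gene, printed and shaded on the scale log2(UMIs + 1); right, how many other cell cycle genes of the 5 lists had a UMI, from 11 to 50 in the cells with 4 or more of the genes.

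The cells at the top of this range look unlike each other in which genes they hold. A PBS 216 cell gave 67 UMIs of 6 genes: 2 of Mki67, 9 of Top2a, 6 of Stmn1, 18 of Hmgb2, 15 of Tubb5 and 17 of Tuba1b, with none of Mcm5 or Mcm6. A PBS 218 cell gave 45 UMIs of 7 genes, among them 6 of Pclaf, 5 of Mcm5 and 8 of Mcm6, with none of Mki67 or Top2a. The first thus holds the late genes without the helicase, and the second the helicase and the clamp partner without the late genes. A TAT-CRE 215 cell with a Cd4 transcript gave 28 UMIs of 7 genes, with 8 of Mki67 beside 3 of Mcm5 and 4 of Mcm6. The only Birc5 UMIs, 2 in number, were in a PBS 216 cell that also held Top2a, Stmn1, Hmgb2, Tubb5 and Tuba1b.

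Whether cells with several of these genes also held other transcripts of the cell cycle was read from 5 lists of cell cycle genes that include none of the 10 (replication fork, nucleotide supply, cyclins and kinases, spindle and kinetochore, chromatin packing). The summed level of the lists was 3256 CPM in cells with 0 of the 10 genes, 3347 with 1, 3518 with 2, 4066 with 3 (9 cells) and 13763 with 4 or more (9 cells). Over all mice together, the largest rise thus lies at 4 genes. In the cells with 4 or more it stood at 12540 CPM in TAT-CRE 207, 13270 in TAT-CRE 215, 13824 in PBS 216 and 15325 in PBS 218. In cells with 0 or 1 it stood at 3141, 4107 and 3239 CPM in the TAT-CRE mice, against 2878 and 3321 CPM in the PBS mice. In each of these 4 mice the cells with 4 or more stood above those with 0 or 1. The rise did not begin at 4 in every mouse: the single TAT-CRE 215 cell with 3 of the genes stood at 9214 CPM, and one of the TAT-CRE 207 cells with 3 at 9580 CPM. The TAT-CRE 215 cell held 7 UMIs of Cd4 but 0 of the T cell markers, so these markers do not identify it as a T cell. Cell by cell the level ran from 3668 to 24413 CPM, and the lowest belonged to a PBS 216 cell with 5 of the genes that lies near the cells with 0 or 1.

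The number of distinct list genes rose most at 4 as well. It averaged 2.03, 2.85, 3.82, 6.11 and 22.9 per cell in cells with 0, 1, 2, 3 and 4 or more of the 10 genes. With each cell thinned to 400 UMIs it averaged 0.857, 0.990, 1.26, 1.33 and 4.78. The 9 cells with 4 or more had 11 to 50 list genes, while no cell with fewer passed 16. Depth moves with this result: the 9 cells had 2070 to 10361 UMIs, with a median of 8654. The other 9 cells above 8000 UMIs, which carried fewer than 4 of the genes, had a median of 7 list genes. The grouping at 4 was chosen after these values were seen, so they are a description and no test was made of them.

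**Figure D3:**
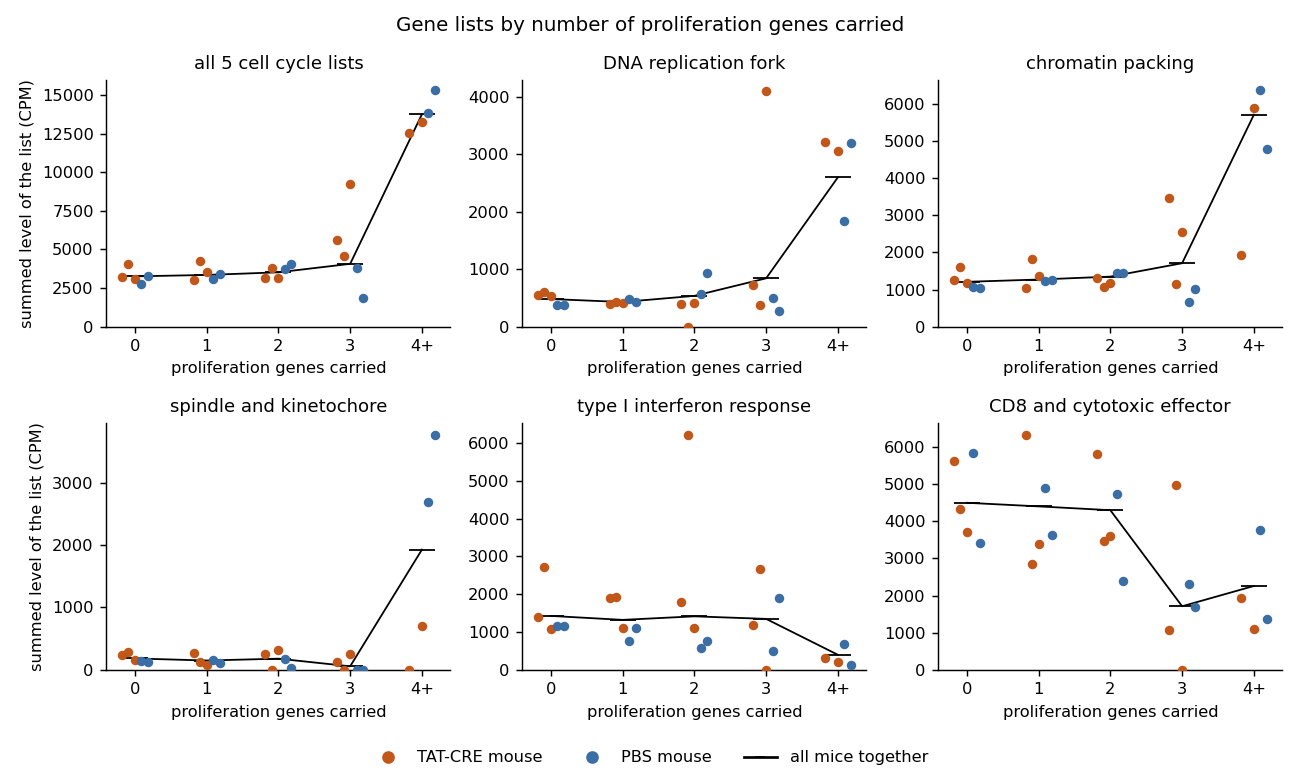
Summed level (y axes, CPM) of gene lists by the number of the 10 proliferation genes a cell carried (x axes), for each TAT-CRE mouse (orange) and PBS mouse (blue) and for all mice together (black). The 5 cell cycle lists stand at 13763 CPM in cells with 4 or more genes and between 3256 and 4066 CPM below that, and the interferon and cytotoxic lists are lower in cells with 4 or more.

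Each of the 5 lists took part. In cells with 4 or more of the 10 genes, against cells with 0 or 1, spindle and kinetochore genes stood at 1929 against 169 CPM, replication fork genes at 2601 against 460.0, nucleotide supply genes at 1430 against 196, chromatin packing genes at 5719 against 1232 and cyclins and kinases at 2084 against 1233. Pcna, the sliding clamp of the replication fork, stood at 586 against 83.7 CPM, Smc4 of the condensin complex at 861 against 238, Rrm1 of ribonucleotide reductase at 207 against 18.9 and the spindle gene Ckap5 at 241 against 17.0. The spindle list was uneven between mice, at 0 CPM in the cell of TAT-CRE 207 and 701 in TAT-CRE 215, against 2696 in PBS 216 and 3774 in PBS 218. Ccnd2, a cyclin of the entry into the cycle that 536 kept cells carry, went the other way with 482 against 768 CPM. So did Cdk6 of the cyclin and kinase list, at 0 against 72.0 CPM, and the spindle gene Racgap1, at 17.2 against 31.7 CPM.

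Lists of T cell function differed in direction. In cells with 4 or more genes against cells with 0 or 1, the interferon response list stood at 396 against 1385 CPM and was lower in each of the 4 mice with such cells. Naive and central memory genes stood at 413 against 1304 CPM, also lower in all 4. The cytotoxic effector list stood at 2257 against 4460 CPM and that of cell cycle inhibitors and quiescence at 1499 against 1794; the first was lower in all 4 mice and the second in 3 of 4. The CD4 helper and regulatory list was higher, at 1154 against 876 CPM, and so in all 4 mice, though TAT-CRE 207 and PBS 218 had 1 such cell each. Of its 3 genes with most UMIs, Il2rb stood at 413 against 290 CPM and Ctla4 at 293 against 89.4. Gata3 went the other way, at 51.7 against 97.7 CPM. Since 7 of the 9 cells had a Cd8 and no Cd4 UMI, the list level does not give their lineage. The resident memory and activation list stood at 2239 against 2426 CPM. T cell markers stood at 4392 against 5142 CPM, and all 9 cells had at least 2 of the 10 T cell markers. The fewest T cell marker UMIs, 4 of 4867 UMIs, were in the TAT-CRE 215 cell with neither a Cd4 nor a Cd8 UMI. The cell cycle lists of that cell stood at 23834 CPM. None of the 9 held both a Cd4 and a Cd8 UMI, their B cell markers were at 0 CPM against 120, and microglia markers at 51.7 against 34.7. Markers of monocytes or macrophages stood at 68.9 CPM in the 9 cells, all from that of TAT-CRE 207, against 123 CPM. In that list 6 of 7 genes had no UMI in any kept cell. Doublets were not called by a program, and their part in the result was not tested.

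Genes outside the 10 were also tested between the 110 cells with 2 or more and the other 1372, on UMIs summed per mouse and class with the mouse as a block. No gene passed edgeR's quasi-likelihood test at a Benjamini-Hochberg adjusted p of 0.05 (0 of 2370, 0%; 81 had an unadjusted p under 0.05, and DESeq2 called 1, Gm17383). Of the cycle lists, 17 genes had enough counts to be tested. A log2 fold change above 0 was seen in 13 of them (76.5%), beside 34.5% of all genes tested. The median of the 17 was 0.48, beside -0.18 over all genes tested. Smc4 had 0.87 ± 0.30 (SE), Pcna 0.71 ± 0.61 and Nme1, a nucleoside diphosphate kinase, 0.74 ± 0.52 (edgeR adjusted p = 0.998 each). In a simulation of this comparison, 76% of genes changed 4-fold and 22% of genes changed 2-fold were called. The genes changed in it all had a mean count at or above the median of those tested, so it does not cover genes with fewer UMIs.

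Mki67 and Top2a were often seen alone. Of 15 cells with Mki67, 9 held no other of the 10 genes, and of 27 cells with Top2a, 15 held no other. These were not all single molecules: 3 of the 9 Mki67 cells and 6 of the 15 Top2a cells had 3 or more UMIs, and both genes had up to 8 UMIs in such a cell. The cycle lists stood at 4888 CPM in the Mki67 cells and 4863 CPM in the Top2a cells, against 3256 in cells with 0 of the genes and 13763 in cells with 4 or more. A count of Mki67 or Top2a by itself thus went with a list level nearer to that of cells without any of the 10 genes.

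The sequence before the start of these genes is shown because cell cycle genes share short promoter motifs. The cell cycle homology region (searched as TTTGAA or TTTAAA) is read by the DREAM and MuvB complexes in late cell cycle genes, CCAAT by NF-Y, and E2F sites (searched as TTTCCCGC, TTTCGCGC, TTTGCCGC or TTTGGCGC) by E2F factors at genes of DNA replication. Both strands of the 250 bases before the start were searched in RefSeq promoters of GRCm38.p6, which held 9 of the 10 genes (not Stmn1). Mki67 and Top2a are shown as the late genes and Mcm5 and Mcm6 as those of replication; capitals mark matches on either strand, and matches that touch or overlap run together.
Mki67, chr7:135716380-135716629, minus strand: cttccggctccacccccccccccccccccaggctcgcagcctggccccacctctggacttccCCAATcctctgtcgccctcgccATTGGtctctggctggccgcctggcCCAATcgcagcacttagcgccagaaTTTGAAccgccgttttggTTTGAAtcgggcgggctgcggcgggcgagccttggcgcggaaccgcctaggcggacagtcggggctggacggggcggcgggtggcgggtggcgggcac
Top2a, chr11:99024190-99024439, minus strand: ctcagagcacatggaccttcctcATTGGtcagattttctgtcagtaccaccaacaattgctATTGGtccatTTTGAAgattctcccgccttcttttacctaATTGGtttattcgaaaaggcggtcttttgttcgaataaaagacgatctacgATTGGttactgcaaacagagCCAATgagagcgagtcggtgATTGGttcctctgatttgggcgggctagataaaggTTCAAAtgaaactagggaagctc
Mcm5, chr8:75109259-75109508, plus strand: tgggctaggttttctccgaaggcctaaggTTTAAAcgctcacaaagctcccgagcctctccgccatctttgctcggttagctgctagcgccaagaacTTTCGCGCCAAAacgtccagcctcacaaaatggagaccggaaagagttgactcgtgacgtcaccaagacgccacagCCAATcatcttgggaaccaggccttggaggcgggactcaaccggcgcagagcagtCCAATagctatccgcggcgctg
Mcm6, chr1:128359706-128359955, minus strand: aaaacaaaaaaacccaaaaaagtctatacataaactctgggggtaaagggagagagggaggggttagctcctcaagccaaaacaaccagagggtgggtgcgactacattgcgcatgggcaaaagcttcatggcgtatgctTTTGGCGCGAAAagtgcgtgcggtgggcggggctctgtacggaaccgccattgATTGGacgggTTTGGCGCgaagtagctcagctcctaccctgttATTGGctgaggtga
The homology region was matched in Mki67, Top2a, Birc5, Hmgb2 and Mcm5 (5 of 9, against 25.2% of 32851 promoters), CCAAT in 7 of 9 (33.8% of all) and an E2F motif in Mcm5 and Mcm6 (2 of 9; 1.86% of all). A match describes these letters and no more. Reads at these genes may be shared with neighbours, since the use of strand in counting is not given: on mm10, Pclaf (chr9:65890237-65903266, plus strand) overlaps Trip4 on the other strand, and Mki67 (chr7:135689784-135716361, minus strand) overlaps Gm45240. Near copies limit the tubulins in the same way, with 198 UMIs of Tuba1a and 120 of Tuba1c beside the 285 of Tuba1b, and 169 of Tubb4b beside the 468 of Tubb5.

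Lineage was read from each cell's own UMIs of Cd8a, Cd8b1 and Cd4, the coreceptors of cytotoxic and helper T cells. Of the 110 cells with 2 or more of the 10 genes, 57 had a Cd8 UMI only, 8 a Cd4 UMI only, 4 both and 41 neither. Of the other 1372 cells these were 573, 77, 21 and 701. Among the Cd4 only cells of the 110 was the TAT-CRE 215 cell with 3 of the genes and 0 UMIs of T cell markers. Of the 9 cells with 4 or more, 7 were Cd8 only, 1 was Cd4 only and 1 had neither, and the 4 cells with 2 or more of Mki67, Top2a, Birc5 and Pclaf were all Cd8 only. The 42 cells with at least 1 of those 4 genes were spread more widely, with 18 Cd8 only, 7 Cd4 only, 2 both and 15 neither. Cells with neither coreceptor are shallower, with a median of 1315.5 UMIs against 1985.5 in Cd8 only and 1717 in Cd4 only cells.

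After thinning to 400 UMIs, the share with 2 or more of the genes was 1.35 ± 0.424% in Cd8 only cells and 0.655 ± 0.866% in Cd4 only cells (SD over 5 mice). Cd8 only minus Cd4 only was 1.13, 0.855 and -1.33 percentage points in the TAT-CRE mice, against 1.56 and 1.28 in the PBS mice. It was above 0 in 4 of 5 mice and below 0 in TAT-CRE 215, the mouse with the Cd4 cell of 7 genes, and the exact permutation test by sign flips over 5 mice gave p = 0.3125 (the smallest that 5 mice allow is above 0.05). Unthinned, the shares were 8.14 ± 4.22% and 7.93 ± 5.67%, a difference of 0.215 percentage points that was above 0 in 3 of 5 mice (exact permutation p = 0.8125), and thinned with no mitochondrial limit the difference was 0.252. The Cd4 only cells number 85 in all, 8 to 23 per mouse, and no test over 5 mice could pass here at any size of difference.

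None of the 10 genes had enough UMIs for the test between Cd8 only and Cd4 only cells, which took 728 genes. It called 2 of them (0.275%), Ccl5, a chemokine of effector CD8 T cells, and Ly6c2, a surface antigen of memory CD8 T cells. Ccl5 stood at 3175 ± 774 CPM in Cd8 only and 715 ± 375 CPM in Cd4 only cells (SD, n = 5; log2 fold change 2.18 ± 0.20, SE; edgeR adjusted p = 2.81e-05), and Ly6c2 at 648 ± 164 against 66.9 ± 47.0 CPM (3.21 ± 0.48; edgeR adjusted p = 0.00436), both higher in 5 of 5 mice. In these sums Mki67 was at 8.71 CPM in Cd8 only cells (5 of 630 cells) and 56.5 CPM in Cd4 only cells (3 of 85), and Top2a at 29.5 CPM (13 cells) and 51.4 CPM (4 cells), both pooled over mice. The pooled values rest on few cells: 8 of the 11 Mki67 UMIs of Cd4 only cells lay in 1 cell of TAT-CRE 215. Mki67 was higher in Cd4 only cells in TAT-CRE 207 (48.8 against 2.34 CPM in Cd8 only cells) and TAT-CRE 215 (151 against 0). It was higher in Cd8 only cells in TAT-CRE 208, PBS 216 and PBS 218, at 40.7, 6.74 and 14.9 CPM against 0. Top2a in Cd4 only cells was found in TAT-CRE 208 (338 CPM) and PBS 218 (63.8 CPM) and was at 0 in the other mice. Pclaf and Birc5 were found in Cd8 only cells and in no others.

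Levels per mouse were compared between TAT-CRE and PBS mice on UMIs summed over all kept cells, where fewer cells that express a gene and less RNA per cell cannot be told apart. No gene passed (0 of 6341, 0%; 240 had an unadjusted p under 0.05, and DESeq2 called 1, Ifit3). Of the 10 genes 7 were tested and 0 were called; Stmn1, Pclaf and Birc5 had too few UMIs. In a simulation of this comparison 55% of genes changed 4-fold and 4% of genes changed 2-fold were called, so smaller differences would mostly be missed. The changed genes were drawn from tested genes with a mean count at or above the median. Recovery of genes with fewer UMIs was not measured. Some markers of other cells lay apart between the groups. NK cell markers stood at 46.2, 33.1 and 6.80 CPM in the TAT-CRE mice, against 189 and 118 CPM in the PBS mice. B cell markers stood at 95.3, 163 and 158 CPM, against 70.3 and 94.1 CPM. Neither overlapped between the groups, and their part in the levels given next was not tested.

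Mki67 had 26.0, 38.6 and 23.8 CPM in the TAT-CRE mice (18, 14 and 14 UMIs), against 3.60 and 7.15 CPM in the PBS mice (2 and 6 UMIs). Every TAT-CRE mouse lay above both PBS mice. The means were 29.5 ± 8.0 and 5.38 ± 2.51 CPM (SD over 3 TAT-CRE and 2 PBS mice), and the log2 fold change of 2.27 ± 0.87 (SE, 95% interval 0.38 to 4.15) had an unadjusted p of 0.0223 and an edgeR adjusted p of 0.999. The UMIs came from 6, 4 and 2 cells of the TAT-CRE mice and 1 and 2 of the PBS mice, and as a share of cells (1.93%, 1.32% and 0.671%, against 0.338% and 0.730%) the groups overlap. Top2a did not show the same order, with 28.9, 46.9 and 22.1 CPM in the TAT-CRE mice and 18.0 and 32.2 CPM in the PBS mice (log2 fold change 0.23 ± 0.63, edgeR adjusted p = 0.999).

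Pclaf had 0 UMIs in the TAT-CRE mice, where 0 of 912 cells allows a share of cells with a UMI of up to 0.329% (3 counts of the total, no limit on cells that express the gene), and 1 and 7 UMIs in PBS 216 and 218, in 3 of 570 cells. Of its 8 UMIs 6 lay in a single cell. Birc5 had 2 UMIs, in PBS 216.

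The tubulin genes lay the other way from Mki67. Tubb5 had 136, 157 and 112 CPM in the TAT-CRE mice, against 195 and 170 CPM in the PBS mice. Tuba1b had 67.9, 85.5 and 79.9 CPM in the TAT-CRE mice and 142 and 96.5 CPM in the PBS mice. For both genes the highest TAT-CRE level was under the lowest PBS level, with means of 135 ± 22.5 and 182.5 ± 17.1 CPM for Tubb5 and 77.8 ± 9.01 and 119 ± 32.4 CPM for Tuba1b (SD, n = 3 TAT-CRE and 2 PBS mice). The log2 fold changes were -0.53 ± 0.28 (SE, 95% interval -1.13 to 0.07) and -0.70 ± 0.35 (-1.45 to 0.06), with an edgeR adjusted p of 0.999 for each. Groups without overlap were thus seen in 3 of the 7 tested genes, 1 above and 2 below, beside 10.3% of all tested genes above, 7.22% below and 17.6% in either direction. The absence of overlap for Mki67, Tubb5 and Tuba1b was the same with the ribosomal RNA genes left out, for instance at 48.0, 53.9 and 45.8 CPM of Mki67 in TAT-CRE mice and 6.64 and 12.7 CPM in PBS mice.

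**Figure D4:**
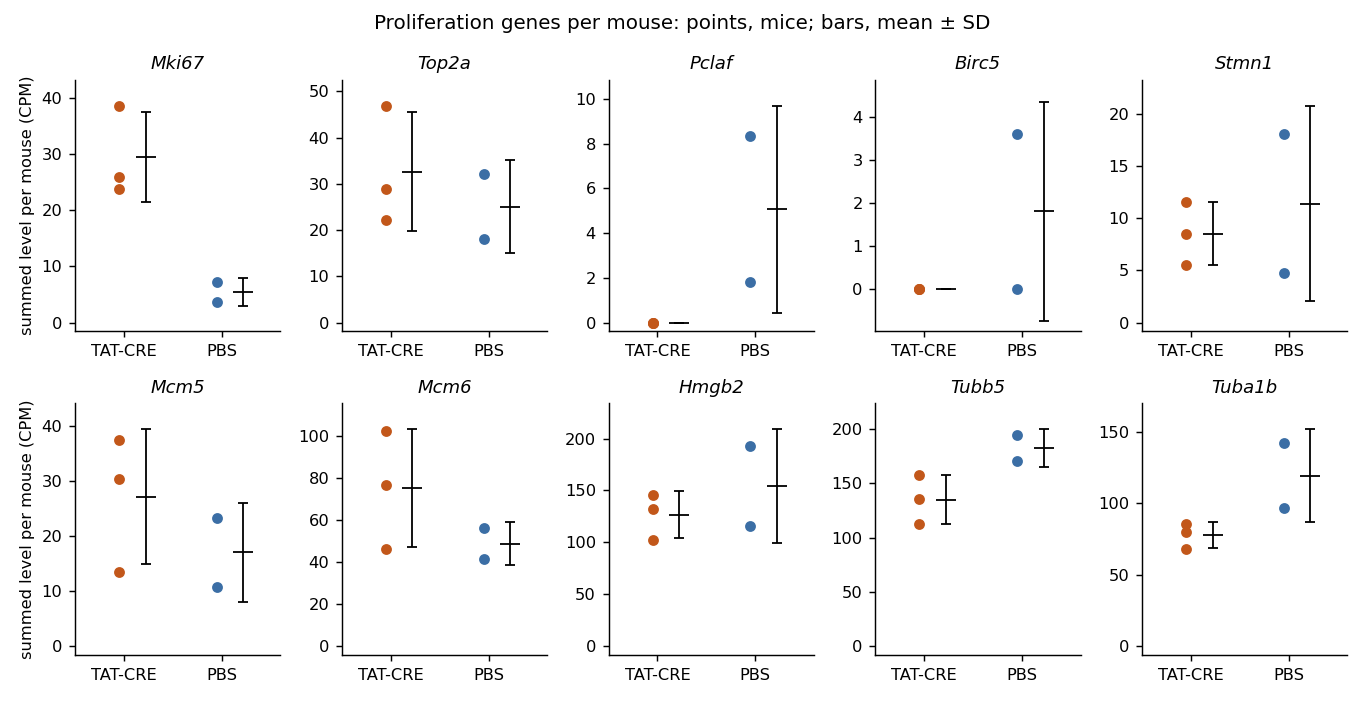
Level of each of the 10 genes (y axes, CPM of UMIs summed per mouse, each panel with its own scale) in TAT-CRE mice (orange, left) and PBS mice (blue, right); points are mice and black bars the mean ± SD. Mki67 lies at 23.8 to 38.6 CPM in TAT-CRE and 3.60 to 7.15 CPM in PBS mice, while Tubb5 and Tuba1b lie lower in every TAT-CRE mouse.

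Hmgb2 and the helicase genes overlapped between the groups. Hmgb2 had 146, 132 and 102 CPM in the TAT-CRE mice, against 193 and 116 CPM in the PBS mice (log2 fold change -0.36 ± 0.33). Mcm5 had 37.6, 30.3 and 13.6 CPM, against 23.4 and 10.7 CPM (0.59 ± 0.76), and Mcm6 46.2, 102 and 76.5 CPM, against 41.4 and 56.0 CPM (0.49 ± 0.43). PBS 216 held the highest Hmgb2 level and TAT-CRE 208 the highest Mcm6 level. Stmn1 had 11.6, 5.52 and 8.50 CPM in the TAT-CRE mice and 18.0 and 4.77 CPM in the PBS mice. Without PBS 216 the log2 fold changes of Top2a and Hmgb2 were -0.09 and 0.10, so their direction rests on that mouse. The summed level of the 10 genes was 512 ± 80.8 CPM in the 3 TAT-CRE mice, against 571 ± 97.6 CPM in the 2 PBS mice (SD), a difference smaller than the spread within either group.

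No gene of the other cell cycle lists passed the test between TAT-CRE and PBS mice. Summed, the 5 lists stood at 3211, 4094 and 3659 CPM in the TAT-CRE mice, against 3456 and 3478 CPM in the PBS mice, which lie within the TAT-CRE range. Of their 51 genes tested, 0 passed, 24 had a log2 fold change above 0 and the median was -0.08, beside 0.00 over all genes. The spindle list, which is closest to Mki67 and Top2a in the cycle, stood at 217 ± 43.8 CPM in TAT-CRE and 198 ± 79.4 CPM in PBS mice, and the replication fork list at 540 ± 65.3 and 484 ± 13.7 CPM (SD, n = 3 and n = 2). Cell cycle inhibitors and quiescence genes stood at 1961 ± 459 and 1730 ± 62.1 CPM, with 0 of 16 tested genes past the threshold, and the other tubulin and stathmin genes at 353 ± 31.0 and 403 ± 58.2 CPM, with 0 of 6 past it. All 6 had a log2 fold change below 0, at a median of -0.18, while 50.2% of all genes tested lay above 0. Tuba4a stood at 60.9 ± 1.86 CPM in TAT-CRE and 77.1 ± 12.3 CPM in PBS mice (log2 fold change -0.40 ± 0.39, edgeR adjusted p = 0.999). Tbca (88.1 and 88.5 CPM, -0.04 ± 0.39) and Tuba1a (68.1 and 64.9 CPM, -0.07 ± 0.43) hardly differed.

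No single gene tracked the number of proliferation genes closely. Over 1482 cells thinned to 400 UMIs, the genes whose UMIs went best with that number were Snord16a, Exosc6, Vamp2, Timm10b and Mcm3, with Pearson's r of 0.17, 0.14, 0.14, 0.14 and 0.14, out of 7231 candidates. In counts this sparse, correlations of that size are no finding, although Mcm3 is a further subunit of the helicase that Mcm5 and Mcm6 belong to.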

How the data were processed

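UMI counts per gene and well were deposited by the authors, with a deposited column of counts giving the cells sorted per well; mm10 and bcl2fastq 2.15.0.4 are named in the submitters' processing notes. The sources used here do not give the aligner, annotation or use of strand. Wells, cells and depths are stated with the results; the filters removed 223 wells under 400 UMIs and 195 over 30% mitochondrial UMIs. The 10 genes, the gene lists and the tests were chosen with earlier results of these data known.

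UMIs were summed per mouse, or per mouse and cell class, and tested with edgeR 4.0.16 (quasi-likelihood, TMM, filterByExpr) in R 4.3.3, adjusted by Benjamini-Hochberg over all genes tested, at a threshold of 0.05; genes defining classes were left out. DESeq2 1.42.0 was an alternative. Shares were compared by exact permutation over mice, with 20 seeded thinnings to 400 UMIs (Python 3.11.15, numpy 2.4.6, scipy 1.17.1). The edgeR fits were tested on simulated counts. Any 2 libraries differed far beyond sampling noise (chi-square per degree of freedom 4.42 to 13.4). Named genes: all 10; class genes past the threshold with at least 50 UMIs and the same direction in every mouse; otherwise the 3 list genes with most UMIs. Promoters are RefSeq's; GENCODE M21 named 95.6% of detected genes. P-values measure the spread between these mice.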

Additional observations from a re-analysis of the deposited data

Results flagged for a closer look

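Wells outside the main comparisons also held UMIs of the 10 genes. Of 418 wells with 1 cell that were left out for low depth or a high mitochondrial share, 57 held at least 1 such UMI, while the 20 empty wells held 0. Of these 57, 12, 6 and 17 belonged to the TAT-CRE mice, against 15 and 7 of the PBS mice. Those carrying 2 or more of the genes numbered 5 (1.196%), 4 of them among wells over the mitochondrial limit, and 0 carried 4 or more.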

How the results depend on the processing

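Of 187 recomputed values, 170 were taken as unchanged. Tested values among them kept their direction and side of the threshold. Permutation tests on shares could not pass the threshold at any size of difference, so their side of it was fixed beforehand. For shares, unchanged therefore means only the same direction. The TAT-CRE minus PBS share with 2 or more genes was -0.395 percentage points. It counted as unchanged at -1.07 unthinned and at -0.188 with no mitochondrial limit. Counts of genes called among the 170 were equal or close to those of the main analysis, such as 3 in place of 2. The summed level of the 10 genes, where no test was made, moved by less than the spread between mice. It changed sign without PBS 216 (10.7 CPM). Genes called between TAT-CRE and PBS mice were 0 of 6341, but 1 with DESeq2 (Ifit3) and 8 with no filter on low counts. Between cells with 2 or more of the 10 genes and the others they were 0, but 1 with DESeq2 (Gm17383), 21 with no filter, 19 thinned to 400 UMIs (all lower in carriers, but with 13 cells in place of 110 left as carriers and 380 genes tested), 5 for carriers of 2 or more of Mki67, Top2a, Birc5 and Pclaf (Gm26917, Gm42418, mt-Rnr1, mt-Rnr2 and mt-Nd4, all lower in the 4 cells), 1 without the ribosomal RNA genes (Malat1, lower) and, chosen after seeing the data, 4 for carriers of 4 or more (Gm11223 higher; Ccl5, Malat1 and mt-Nd5 lower). Without PBS 218 they were 2 (Hist1h2ao, a histone gene, higher; Malat1 lower), so leaving out 1 mouse gave 0 to 2. Between Cd8 only and Cd4 only cells they were 2, but 4 with DESeq2 (Fos and Rgs2 added, lower), 57 with no filter, 1 thinned (Ccl5), 1 without TAT-CRE 215 (Ccl5) and 3 without TAT-CRE 208 (Ms4a4b added), so 1 to 3 leaving out 1 mouse. Low-count and small-class settings change which genes or cells are tested; the cause was not tested further.

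Without the ribosomal RNA genes the share with 2 or more of Mki67, Top2a, Birc5 and Pclaf differed by 0.0073 in place of -0.04 percentage points (exact permutation p = 1), the cause of which was not tested. The summed level of the 10 genes then differed by -170 in place of -58.3 CPM (means 867 and 1037 CPM, larger SD 202), on a smaller total that raises every CPM. Leaving out 1 mouse, the difference in the share with 2 or more genes was -0.518 to -0.271 percentage points, that by lineage 0.482 to 1.204 and that in summed level -127 to 10.7 CPM. The log2 fold changes were 1.93 to 2.81 for Mki67, -0.66 to -0.39 for Tubb5 and -0.99 to -0.35 for Tuba1b; those of Top2a were -0.0857 to 0.673 and of Hmgb2 -0.714 to 0.0956, both changing sign without PBS 216 (-0.09 and 0.10). Without the cells carrying 4 or more genes, Mki67 had 2.46 and Tubb5 -0.35 (added after seeing the data). The fits between classes without a replicate block called 0 and 2 genes, as with it. No paired analysis was possible because TAT-CRE and PBS mice share no replicate numbers. With 3 against 2 mice and 46 UMIs of Mki67 in TAT-CRE and 8 in PBS mice, depth limits every comparison of the rarer genes.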
